A study of Mus musculus with 2 samples.

Results

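The endoplasmic reticulum (ER) is where secreted and membrane proteins are made and folded, and 40 mouse genes of its folding, protein entry, degradation and stress response machinery were followed here in small-intestinal organoids cultured with or without RankL. The genes were listed by name for these functions, when earlier results of these data were already known. An array probe was taken for a gene if its RefSeq accession belonged to that gene. Of the 40 genes, 39 had a probe, 72 probes in all, and 38 had a probe that counted as measured, out of 12877 measured genes on the array. For this, a probe had to stand well above background on both arrays for at least 1 of the RNAs. A probe accession without a matched gene name was counted as a gene of its own. This holds for the 12877 and for each share of all measured genes. Dnajb11, an ER co-chaperone, had no probe matched, and Derl3, a degradation factor, was not well above background in either RNA. Of the 38 measured genes, 37 were well above background in both RNAs on both arrays. The exception was Creb3l1, which was above background in the RankL RNA on 1 of 2 arrays.

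The organoids were derived from the small intestine of wild-type mice and grown in crypt culture medium with EGF, Noggin and R-spondin, and this medium was common to both groups. The treated organoids received recombinant mouse RankL, in a range of 50 to 200 ng/ml over the study, medium was renewed on day 2 and day 5, and the control organoids received none. Which dose and which harvest time the hybridised RNAs stand for is not given in the sources used here. Both RNAs were hybridised together on 1 dual-colour array and again on another with the dyes exchanged, so there was 1 RNA pair, 1 replicate per group and no statistical test. Values are mean log2 ratios of RankL over untreated, and ± is the SD of the 2 arrays (n = 2 arrays of 1 RNA pair), which leaves out the spread between cultures. An organoid of this kind holds crypt-derived epithelium and no planned immune or stromal cells. All 12 epithelial marker genes examined were measured, with Epcam and Cdh1 at 0.15 and -0.23. By the small size rule given below, 3 were higher (Krt20 at 2.40, Fabp2 at 1.09 and Vil1 at 0.81). Another 3 were lower (Fabp1 at -3.02, Lgr5 at -2.30 and Krt18 at -0.92). These are 25.0% each way, against 12.8% higher and 9.62% lower of all measured genes. Of 12 immune markers 3 were measured, Cd79b at 1.80, Pou2af1 at 0.53 and the plasma cell and epithelial syndecan Sdc1 at -1.44, while Ptprc and Cd3e were not well above background. Of 10 stromal markers 4 were measured, while Col1a1, Dcn and Pdgfra were not well above background. Pdgfrb at 0.90 and Acta2 at 0.62 (another probe at -0.087) were higher by the small rule (50.0%, against 12.8% of all genes). Pdgfrb was not well above background in the untreated RNA. Col1a2 and Vim were at 0.17 and -0.067. In RNA of whole organoids, fewer cells of a type and less RNA per cell cannot be told apart.

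Proteins enter the ER through the Sec61 channel, fold with the help of chaperones such as BiP (Hspa5) and of disulphide isomerases, and are sent back to the cytosol for degradation if they fail to fold. When unfolded proteins build up, the sensors IRE1, PERK and ATF6 start the unfolded protein response, in which the transcription factors XBP1, ATF4 and cleaved ATF6 raise the genes of this machinery. In the intestine, goblet and Paneth cells depend heavily on it, because they export large amounts of mucin and antimicrobial protein.

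Many promoters of these genes share a short element. The ER stress response element, ERSE, which ATF6 and XBP1 bind with NF-Y, reads CCAAT, then any 9 bases, then CCACG. In RefSeq promoter windows of assembly GRCm38.p6, from 250 bases before to 50 after a gene's start, an ERSE on either strand was found in 7 of the 31 listed genes that had a window (22.6%), against 37 of 27025 genes in the whole table (0.137%). The related ERSE-II, ATTGG and CCACG with 1 base between them, was found in Herpud1 and Dnajb11, against 12 genes in all (0.0444%). The motif TGACGTGG, the core of the unfolded protein response element, was found only in Txndc5 among the 31 (3.23%, against 0.714% of all genes). An ERSE always contains the shorter CCAAT and CCACG, which were each common elsewhere too: CCACG lay in 24 of the 31 genes and in 35.5% of all genes, and CCAAT in 22 of the 31 and in 41.1%. A match describes these letters and is not evidence of binding. The genes were listed for functions that include the response this element serves, so their higher share was not an independent finding.

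The 250 bases before the start are given for the 7 measured genes with an ERSE or ERSE-II, since their ratios can be set beside this shared element. They read 5′ to 3′ on the gene's strand, with the element in capitals. An element on the opposite strand appears as CGTGG, 9 bases and ATTGG.
Hspa5 (chr2:34771840-34772089, plus strand): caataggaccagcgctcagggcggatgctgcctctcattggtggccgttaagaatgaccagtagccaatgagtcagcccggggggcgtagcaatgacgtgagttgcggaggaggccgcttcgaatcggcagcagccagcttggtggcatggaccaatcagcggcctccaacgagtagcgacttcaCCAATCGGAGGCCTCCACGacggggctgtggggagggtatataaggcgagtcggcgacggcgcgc
Hsp90b1 (chr10:86705445-86705694, minus strand): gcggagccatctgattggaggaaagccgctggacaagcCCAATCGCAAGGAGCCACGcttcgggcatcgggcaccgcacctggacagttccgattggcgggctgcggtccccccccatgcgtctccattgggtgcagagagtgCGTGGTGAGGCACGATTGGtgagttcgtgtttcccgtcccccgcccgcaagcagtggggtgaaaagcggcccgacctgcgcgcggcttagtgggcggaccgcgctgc
Creld2 (chr15:88819396-88819645, plus strand): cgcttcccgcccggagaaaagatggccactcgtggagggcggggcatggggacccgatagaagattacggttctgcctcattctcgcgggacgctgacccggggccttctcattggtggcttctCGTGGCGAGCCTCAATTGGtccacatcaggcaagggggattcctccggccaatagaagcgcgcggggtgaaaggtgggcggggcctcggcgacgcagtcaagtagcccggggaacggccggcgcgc
Dnajc3 (chr14:118937682-118937931, plus strand): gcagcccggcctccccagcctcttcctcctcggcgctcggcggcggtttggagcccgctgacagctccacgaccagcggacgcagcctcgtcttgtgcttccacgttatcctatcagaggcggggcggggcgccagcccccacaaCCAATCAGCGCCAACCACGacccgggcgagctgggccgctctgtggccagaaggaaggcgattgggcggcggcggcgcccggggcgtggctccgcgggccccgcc
Pdia6 (chr12:17266339-17266588, plus strand): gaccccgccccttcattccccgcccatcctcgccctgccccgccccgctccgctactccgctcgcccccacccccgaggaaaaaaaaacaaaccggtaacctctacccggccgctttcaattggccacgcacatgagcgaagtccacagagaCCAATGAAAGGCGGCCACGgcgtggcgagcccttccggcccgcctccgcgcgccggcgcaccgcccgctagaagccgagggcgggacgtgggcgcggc
Syvn1 (chr19:6046326-6046575, plus strand): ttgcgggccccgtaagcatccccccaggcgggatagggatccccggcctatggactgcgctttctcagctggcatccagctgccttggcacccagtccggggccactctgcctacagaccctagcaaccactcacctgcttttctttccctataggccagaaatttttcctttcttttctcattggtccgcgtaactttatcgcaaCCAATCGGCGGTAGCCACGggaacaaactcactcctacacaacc
Herpud1 (chr8:94386179-94386428, plus strand): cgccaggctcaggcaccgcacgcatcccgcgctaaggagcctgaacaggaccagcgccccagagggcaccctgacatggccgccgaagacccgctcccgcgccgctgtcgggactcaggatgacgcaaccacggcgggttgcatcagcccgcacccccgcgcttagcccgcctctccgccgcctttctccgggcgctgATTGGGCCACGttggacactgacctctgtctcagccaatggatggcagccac
The ERSE of Hspa5 began 65 bases before the start and that of Pdia6 98 bases before it, while Hsp90b1 carried an element on each strand. The ratios of these 7 genes ran from -0.84 for Pdia6 to 0.26 for Syvn1, with a median of -0.10, and 2 of them, Pdia6 and Herpud1, were called lower by the small size rule given below. The 22 measured genes with a promoter window and neither element had a median of -0.20 and ran from -0.76 to 0.99. The values of genes with and without an element overlapped.

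Across the ER genes, differences between RankL-treated and untreated organoids were small. By the strong size rule, a mean ratio of 1 or more in size (2-fold) with both arrays beyond 0.5 on that side, 0 of 38 were higher and 0 lower, where 5.47% and 2.5% of all 12877 measured genes were higher and lower. A smaller size rule asked for a mean of 0.5 or more (1.41-fold) with both arrays beyond 0.25 on that side. It called 2 of 38 genes higher (5.26%, against 12.8% of all genes) and 7 lower (18.4%, against 9.62%). The genes called lower were Pdia6, Xbp1, Herpud1, P4hb, Ssr2, Txndc5 and Manf, and those called higher were Dnajc10 and Dnajb9. Of the 38 genes 25 had a mean below 0 (65.8%), against 49.0% of all genes, and their median was -0.17 against 0.0086. On array 1 alone 3 genes were called lower (7.89%, against 11.0% of all genes), Pdia6, Herpud1 and Xbp1, so the share of lower genes was above that of all genes only with array 2 included (10 genes, 26.3%, against 12.1%, on array 2 alone). Median centring gave 2 genes higher and 11 lower (5.26% and 28.9%), against 10.6% and 13.5% of all genes. The summed normalized signal of the 38 genes was nearly equal in both RNAs, at 84610 with RankL and 83328 untreated on array 1 and 83674 and 84575 on array 2. The translocon genes made up 40600 of the 84610, and the sums of the 9 sensors and factors were lower with RankL, at 1816 and 1765 against 2296 and 2288. The Sec61 genes, Erp29 and Hsp90b1 were the brightest of the 38 genes. All of them turned negative with median centring, between -0.19 and -0.026, and the sums were not taken under that setting.

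**Figure D1:**
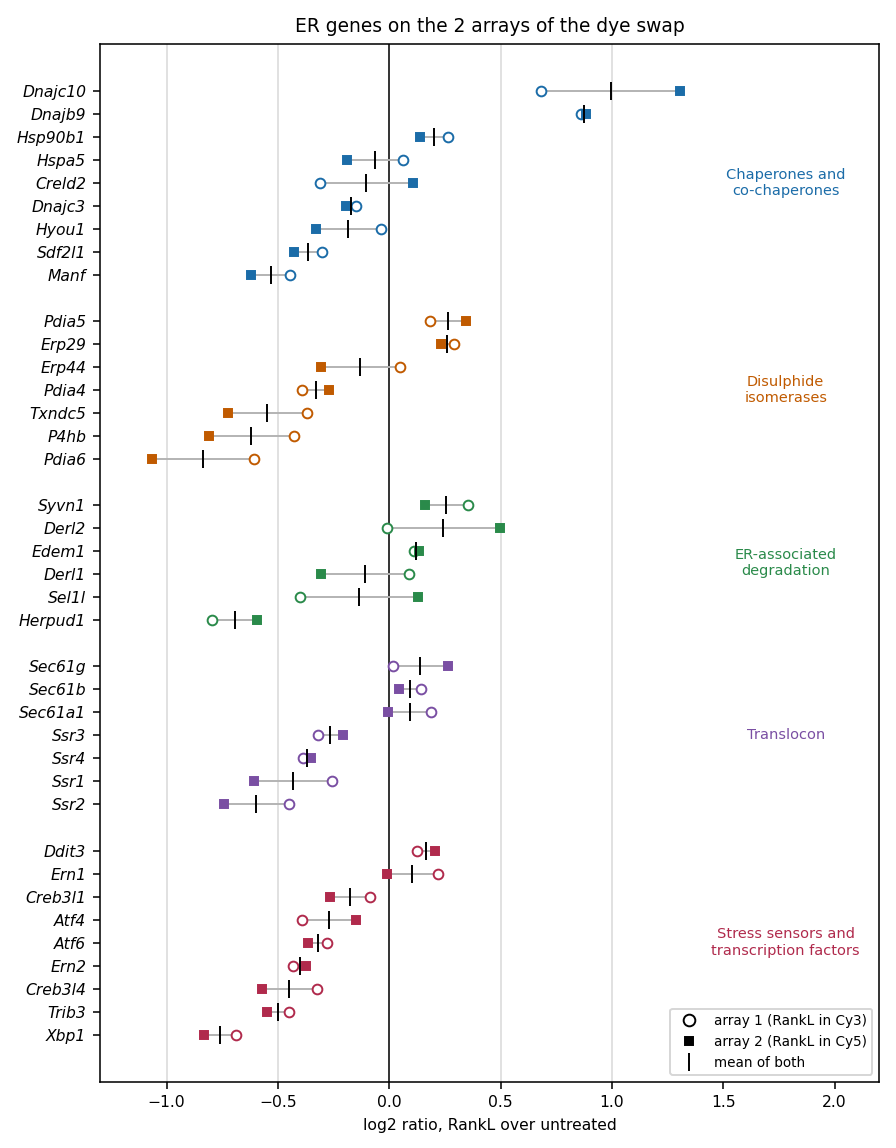
Log2 ratio of RankL over untreated for the 38 measured ER genes in 5 groups, with an open circle for array 1, a square for array 2 and a bar for their mean; grey lines mark 0.5 and 1 in size. Dnajc10 and Dnajb9 lie alone on the right, while Pdia6, Xbp1 and Herpud1 lie farthest left.

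The chaperones and co-chaperones were mixed. Hspa5, the central ER chaperone BiP, gave a background-subtracted signal of 2203 with RankL and 2637.5 untreated on array 1, and of 2515 and 2987 on array 2, before dye normalization. After it, the ratios were 0.062 and -0.19, so Hspa5 had no shared direction on the arrays (mean -0.063 ± 0.18). Hsp90b1, the ER member of the HSP90 family, was at 0.26 and 0.14 (0.20 ± 0.090), and turned to -0.048 when each array was centred on its median instead of by loess. Sdf2l1, a partner of BiP, read -0.30 and -0.43 (-0.37 ± 0.091). Manf, a small secreted protein held in the ER by BiP, read -0.44 and -0.62 (-0.53 ± 0.13) and was called lower by the small rule. Hyou1, which exchanges the nucleotide of BiP, was at -0.18 ± 0.21, Dnajc3, a co-chaperone, at -0.17 ± 0.031, and Creld2 at -0.10 ± 0.30 with opposite signs on the arrays.

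Both genes called higher encode co-chaperones with a J domain. Dnajb9 (ERdj4) binds BiP and represses IRE1, and is itself a well-known XBP1 target. Its signals were 238 with RankL and 120.5 untreated on array 1, and 256 and 120 on array 2. The ratios were 0.86 and 0.88 (0.87 ± 0.016, 1.83-fold), the closest agreement between arrays among the genes called. Dnajc10 (ERdj5) reduces disulphides of proteins bound for degradation. Its signals were 255.5 and 158 on array 1 and 381 and 128 on array 2, and its ratios 0.68 and 1.31 (0.99 ± 0.44, 1.99-fold). Both met the strong rule with a normexp offset of 16 (1.03 and 1.15) and with the scanner software's own ratios (1.19 and 1.30). Another bright probe of Dnajc10 read 0.91. The dimmest measured probes of both genes, not above background in untreated RNA, read 0.26 for Dnajb9 and 0.28 for Dnajc10.

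The disulphide isomerases held 3 of the 7 genes called lower. Pdia6 had signals of 1742 with RankL and 3350 untreated on array 1, and of 1632 and 3611.5 on array 2. Its ratios were -0.61 and -1.07 (-0.84 ± 0.33, 1.79-fold lower), the lowest mean of all 38 genes, although 2 dimmer probes read -0.38 and -0.39. P4hb, the classical protein disulphide isomerase, read -0.43 and -0.81 (-0.62 ± 0.27), with RankL signals of 2185.5 and 2092.5 against 3749 and 3862.5. Txndc5 read -0.37 and -0.73 (-0.55 ± 0.25), with another probe at -0.23, and at -0.39 with probes averaged it no longer met the small rule. In these 3 genes array 2 lay lower than array 1, and all RankL signals lay below the untreated ones. Pdia4 was at -0.33 ± 0.084 and Erp44, which retrieves proteins from the Golgi, at -0.13 ± 0.25, while Pdia5 and Erp29 stood above 0 at 0.26 ± 0.12 and 0.26 ± 0.042. Erp29 turned to -0.026 with median centring. The median of the 7 was -0.33.

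Genes of ER-associated degradation stayed near 0 but for Herpud1. Herpud1, a membrane protein that assembles the degradation complex, had signals of 502 with RankL and 1070.5 untreated on array 1, and of 588 and 944 on array 2. It read -0.79 and -0.59 (-0.69 ± 0.14, 1.62-fold lower). Syvn1, the ubiquitin ligase HRD1 at the core of the complex, was at 0.26 ± 0.14, while its partner Sel1l read -0.40 and 0.13 (-0.13 ± 0.37). The channel proteins Derl1 and Derl2 were at -0.11 ± 0.28 and 0.24 ± 0.36, each with opposite signs on the arrays, and Edem1, a mannosidase-like factor that picks misfolded glycoproteins, was at 0.12 ± 0.016. The median of the 6 measured genes was 0.0059.

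Within the translocon, the subunits of the Sec61 channel and of the associated TRAP complex (Ssr genes) read differently. Ssr1, Ssr2, Ssr3 and Ssr4 were at -0.43 ± 0.25, -0.60 ± 0.21, -0.26 ± 0.081 and -0.37 ± 0.025, all 4 below 0 on both arrays and in each alternative setting tried. Ssr2, called lower by the small rule, had signals of 812 with RankL and 1348 untreated on array 1, and of 658.5 and 1175.5 on array 2. Sec61a1, Sec61b and Sec61g were at 0.091 ± 0.13, 0.092 ± 0.071 and 0.14 ± 0.18. With median centring all 3 turned negative, between -0.19 and -0.15, while the Ssr genes then ran from -0.71 to -0.40. Under that setting as under the main one, the highest Ssr value lay below the lowest Sec61 value. The translocon had been listed as a whole, and this split was made after the values were seen. The difference was not tested. Another probe of Sec61a1 gave opposite signs, 0.20 and -0.70.

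Among the sensors and transcription factors, Xbp1 had the lowest ratio. Xbp1 encodes the factor that IRE1 activates by splicing its mRNA, and Paneth and goblet cells need it. Its signals were 204.5 with RankL and 415.5 untreated on array 1, and 186.5 and 393 on array 2. The ratios were -0.69 and -0.83 (-0.76 ± 0.10, 1.69-fold lower), and the scanner software's own ratio was -1.03. The spliced and unspliced forms were not told apart here. Trib3, a pseudokinase induced by ATF4 and CHOP, read -0.45 and -0.55 (-0.50 ± 0.070), just short of the small rule. Creb3l4 was at -0.45 ± 0.17 and Creb3l1, both of them membrane-bound factors of secretory cells, at -0.18 ± 0.13. Ern2, the IRE1 form found in gut epithelium, read -0.43 and -0.37 (-0.40 ± 0.042), while Ern1, the widely expressed form, read 0.22 and -0.012 (0.10 ± 0.16). Ern2 and Creb3l1 were dim, and with the scanner software's ratios they read -0.88 and -0.55. Atf6 was at -0.32 ± 0.059, Atf4 at -0.27 ± 0.17 and Ddit3, which encodes the pro-apoptotic factor CHOP, at 0.16 ± 0.059. The median of the 9 was -0.32, and 7 were below 0 on both arrays, where 4526 of all 12877 measured genes were.

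**Figure D2:**
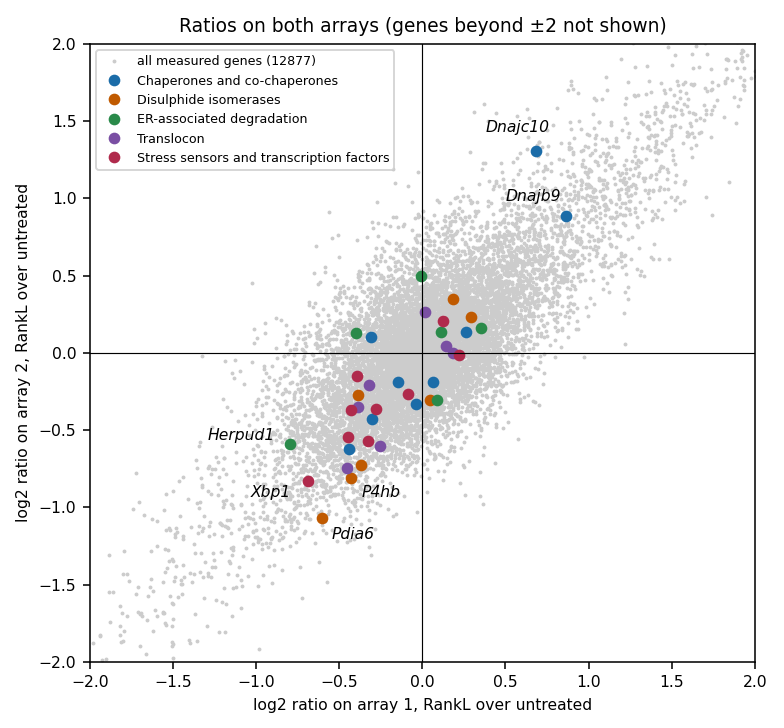
Log2 ratios of RankL over untreated on array 1 (x axis) and array 2 (y axis), with the measured genes in grey, those beyond 2 in size not drawn, and the 38 ER genes coloured by group. Most ER genes lie within 0.5 of the origin on both axes; Dnajb9 and Dnajc10 lie to the upper right and Pdia6, P4hb, Xbp1 and Herpud1 to the lower left.

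The 5 groups can be set side by side by their medians, which were -0.33 for the disulphide isomerases, -0.32 for sensors and factors, -0.26 for the translocon, -0.10 for chaperones and 0.0059 for degradation genes. The small rule called 3 of 7 isomerases lower (42.9%, against 9.62% of all genes), and 1 gene lower in each other group (of 9, 9, 7 and 6 measured). On array 1 alone these calls ended for P4hb, Txndc5, Manf and Ssr2, which left 1 of 7 isomerases. The groups overlapped widely: each held genes on both sides of 0. With genes as the only units and 1 RNA pair, these medians describe the arrays and were not tested against each other.

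**Figure D3:**
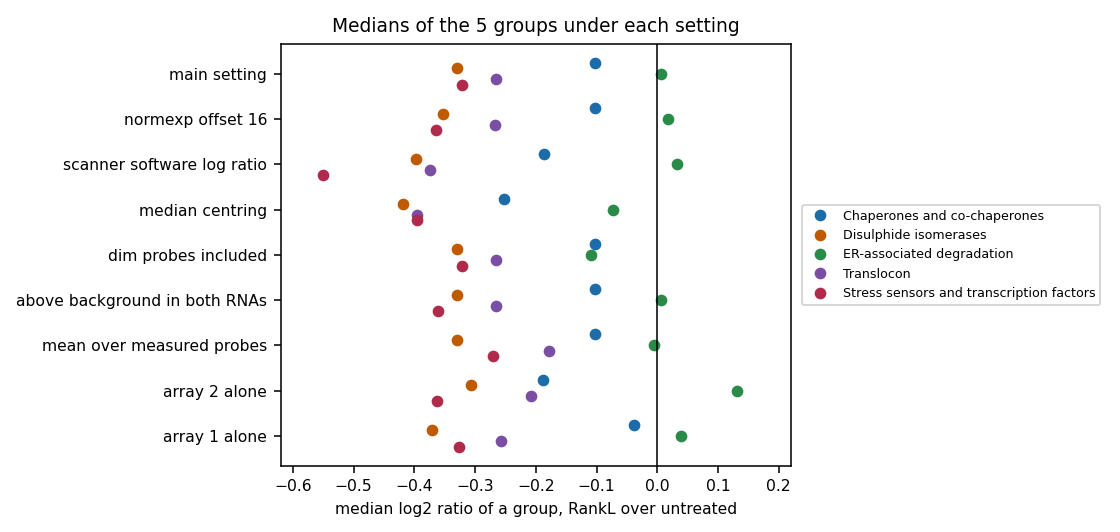
Median log2 ratio of RankL over untreated (x axis) of each of the 5 groups under the main setting and 8 alternatives (y axis). The medians of the chaperones, isomerases, translocon and sensors stay below 0 throughout, while the degradation genes lie around 0 and range from -0.11 to 0.13.

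Of the 38 genes, 16 had several measured probes, and in 15 of them all measured probes shared the sign of their mean ratio, with a median range of 0.23 between the highest and lowest probe. The exception was Sec61a1. All 5 probes of Ssr1 lay between -0.43 and -0.15 and all 4 of Dnajc3 between -0.50 and -0.16. The largest ranges were 0.71 for Dnajc10, 0.62 for Dnajb9 and 0.46 for Pdia6, and in each the brightest probe, which stands for the gene here, had the largest ratio in size. The other probe of Hsp90b1 read -0.66 on array 1 and 0.86 on array 2. Over the 38 genes the median SD between arrays was 0.14, against 0.15 for all genes, and 30 of 38 had the same sign on both arrays. Of all 12877 measured genes, 4526 were below 0 on both arrays and 4803 above 0 on both.

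**Figure D4:**
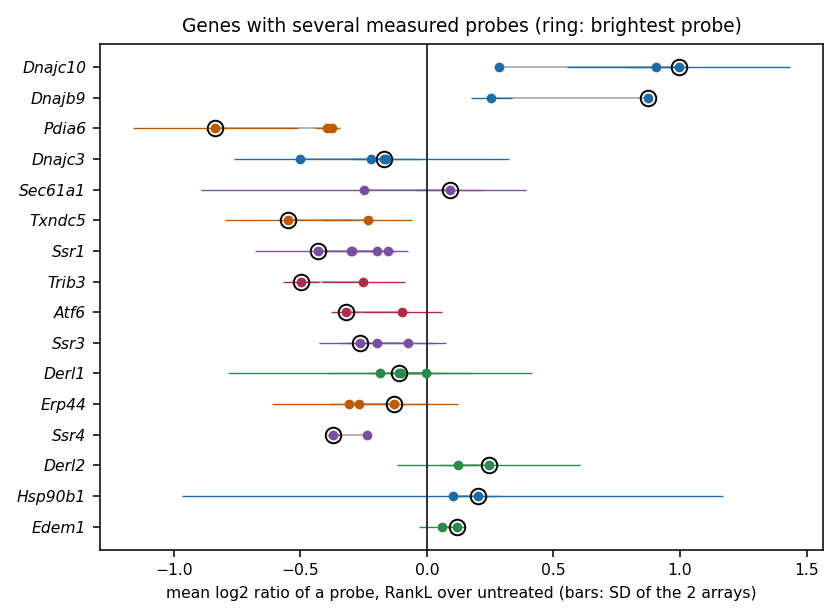
Mean log2 ratio of RankL over untreated (x axis) of each measured probe for the 16 ER genes with several (y axis), with bars for the SD of the 2 arrays and a ring on the brightest probe. The probes of a gene mostly share a side of 0, and the widest gaps are those of Dnajc10, Dnajb9 and Pdia6.

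The surrounding pathway genes came from lists that were drawn up by function. The PERK-ATF4 arm, which lowers translation and raises amino acid supply, held the largest differences. Of 24 measured genes out of 25, 5 were lower by the strong rule, where 2.5% of all genes were. By the small rule 8 were lower (33.3%, against 9.62% of all genes) and 1 higher (4.17%, against 12.8%). The median of the 24 was -0.24. Stc2, a secreted glycoprotein induced by ER stress, read -1.79 and -1.80 (3.47-fold lower). Nupr1, a stress-induced nuclear protein, read -1.5 and -1.90 (-1.70 ± 0.28), and Vldlr, a lipoprotein receptor, -1.74 and -1.01 (-1.38 ± 0.51), with another probe at -0.32. Asns, asparagine synthetase, read -1.46 and -0.83 (-1.15 ± 0.45) and Psat1, an enzyme of serine synthesis, -1.33 and -0.81 (-1.07 ± 0.37). Eif2ak3, which encodes PERK itself, was the gene called higher, at 0.50 ± 0.10. The count of genes lower by the small rule ran from 6 on array 1 alone to 10 with the scanner software's ratios. Of all genes 11.0% and 17.9% were lower under these settings.

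Among 21 measured of 24 other folding genes, 5 were lower (23.8%, against 9.62% of all genes) and 1 higher by the small rule, with a median of -0.15. Ero1a, the oxidase that feeds disulphides to the isomerases, was lower by the strong rule at -1.21 and -1.11 (-1.16 ± 0.066). The others called lower were the prolyl isomerases Fkbp11 and Fkbp2, the glucosidase Mogs and the BiP exchange factor Sil1, from -0.94 to -0.58, and the chaperone Calr was called higher at 0.54 ± 0.19 (another probe at 0.15). These small-rule names, and those in the next paragraph, were picked after their values were seen.

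Of 29 measured genes of 32 that serve protein entry, signal cleavage and N-glycosylation, 4 were lower (13.8%, against 9.62%) and 1 higher (3.45%, against 12.8%), with a median of -0.18. Krtcap2, a subunit of the oligosaccharyltransferase, was at -1.31 and -1.05 (-1.18 ± 0.18), Ostc at -0.62 ± 0.059, Stt3b at -0.57 ± 0.053 and Srp68 at -0.52 ± 0.10, against 0.53 ± 0.27 for Srp54a. With median centring 9 of these genes were lower, and 10 with the scanner software's ratios, where 13.5% and 17.9% of all genes were. Of 18 further degradation genes 3 were higher (16.7%, near the 12.8% of all genes) and 0 lower, with a median of 0.22. The 3 were the lectin Os9 at 0.82 ± 0.11 (another probe at 0.29), Nploc4, a partner of the VCP ATPase, at 0.60 ± 0.23, and the ubiquitin enzyme Ube2j1 at 0.55 ± 0.28 (another probe at 0.16). Edem2 and Selenos had the lowest ratios, -0.31 and -0.17. On array 1 alone 1 degradation gene was higher and 1 lower, where 14.2% and 11.0% of all genes were. On array 2 alone 6 were higher and 1 lower, where 15.0% and 12.1% of all genes were. Of 28 measured ER-Golgi traffic genes 3 were higher (10.7%, below the 12.8% of all genes) and 0 lower. The 3 were Copg1 at 0.61 ± 0.46, Surf4 at 0.60 ± 0.18 (another probe at -0.036) and Sar1a at 0.57 ± 0.14 (another probe at 0.31). Sec13 and Kdelr2 were lowest at -0.50 and -0.38. That count became 0 higher and 3 lower with median centring. It was 1 higher and 0 lower with probes averaged, and 1 higher and 1 lower with the scanner software's ratios. For ER-Golgi genes, array 2 alone gave 1 higher and 2 lower, and array 1 alone 4 higher and 0 lower. Of 13 measured further stress response factors 3 were higher (23.1%, against 12.8% of all genes) and 2 lower (15.4%, against 9.62%). The membrane-bound factor Creb3l3 at 1.22 ± 0.23 and the IRE1 and TNF receptor adaptor Traf2 at 1.13 ± 0.16 met the strong rule upwards. Creb3l2 read 0.95 ± 0.025. Wfs1 was lower at -0.68 ± 0.0026, as was Bhlha15, a factor of secretory cells, at -0.51 ± 0.12, with another probe at 0.027.

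**Figure D5:**
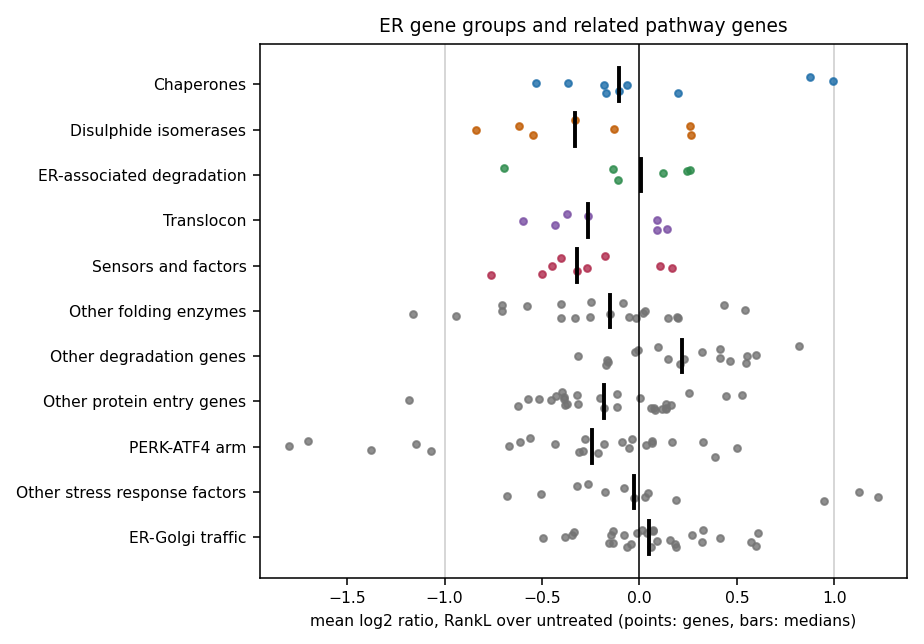
Mean log2 ratio of RankL over untreated (x axis) of each measured gene (points) in the 5 ER groups (coloured) and 6 lists of related pathway genes (grey), with black bars for medians; vertical jitter carries no value. The PERK-ATF4 arm reaches farthest left, to -1.80, and the further degradation genes have the highest median, 0.22.

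Markers of the secretory cells that use this machinery moved in both directions beside these values. Of 16 goblet cell markers 11 were measured, 4 higher and 2 lower by the strong rule, where 5.47% and 2.5% of all genes were. The higher ones were Guca2a at 3.45 ± 0.029, Fcgbp at 1.92 ± 0.25, Zg16 at 1.89 ± 0.18 and Clca1 at 1.34 ± 0.42. The lower ones were Spink4 at -2.11 ± 0.17 and Agr2, itself an ER disulphide isomerase, at -1.58 ± 0.058. The median of the 11 was -0.30, with 6 below 0. Their summed normalized signal was 84833 and 74447 with RankL and 25808 and 25241 untreated on arrays 1 and 2, but without Guca2a it was 20220 and 19272 against 19795 and 20248. The mucin gene Muc2 was at -0.30, and the goblet factors Atoh1 and Gfi1 were not well above background. Of 13 Paneth cell markers 8 were measured. By the same rule, Mmp7 (3.12 ± 0.13), Lyz1 (1.46 ± 0.15) and Cd24a (1.35 ± 0.015) were higher and Itln1 lower (-1.71 ± 0.12). The median of the 8 was 0.13, and the sums were 20404 and 19189 with RankL and 12076 and 11700 untreated. Without Cd24a these sums were 13094 and 12254 against 9227 and 8956. Of 14 enteroendocrine markers 10 were measured. Sct (2.08 ± 0.019) and Cck (1.04 ± 0.31) were higher by the strong rule. Pyy (-0.93 ± 0.18) and Nts (-0.83 ± 0.072) were lower by the small rule. The median of the 10 was 0.20, and the sums were 23218 and 23313 with RankL and 15764 and 13316 untreated. Without Sct these sums were 14483 and 15207 against 13681 and 11419. M cell markers were higher by the strong rule in 14 of 14 genes, against 5.47% of all genes. Their sums were 123011 and 126436 with RankL against 11355 and 10937 untreated. The part of these and of the epithelial, immune and stromal markers in the ER gene ratios was not tested.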

How the data were processed

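Organoid RNA was labelled with Cy3 or Cy5 and read on 2 dual-colour Agilent arrays, per the labels. The deposited files hold intensity values per spot (median pixel brightness and local background, not normalized) from Agilent Feature Extraction 10.5.1.1, per the file headers. The version in the submitters' processing notes is 8.5.1.1. The deposited log10 ratios, background-subtracted and dye-normalized by that software per the file headers, served as an alternative. The authors' deposited value table gives the same log10 ratios, turned to RankL over untreated. RankL was in Cy3 on array 1 and Cy5 on array 2, per the labels.

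With limma 3.58.1 (R 4.3.3), background was corrected by normexp (offset 50) and ratios normalized by loess within each array. Control spots and outlier spots (170 and 164 of 43379 on arrays 1 and 2) were left out of the results. No non-control spot was saturated. Of non-control spots, 38.3% (RankL) and 39.6% (untreated) were well above background on array 1, and 43.4% and 40.1% on array 2. Normexp's offset pulls ratios of dim probes towards 0. Ratios were turned to RankL over untreated and averaged. Both arrays hold 1 RNA pair, so the number of RNAs limits the precision. Signals printed per RNA are median spot minus median background. Summed signals were taken after loess and Aquantile normalization, with 1 probe per gene. Names came from RefSeq accessions matched to GRCm38.p6, which named 26918 of 41174 probes (65.4%), and a gene took its measured probe of highest mean intensity. No coordinates of probes are given, since the array design used another build. The code was checked on simulated data.

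The members, lists and size rules were chosen with earlier results of these data known. By the naming rule, all measured members were named, and of other lists the genes that met the strong rule or else the 2 highest and 2 lowest. Some genes were named outside this rule when their values were known, among them Eif2ak3, Muc2, Pyy, Nts, Vil1 and Krt18. Alternatives covered the offset, the scanner software's ratios, median centring, the filter on dim probes, averaging over probes, and each array alone.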

Additional observations from a re-analysis of the deposited data

How the results depend on the processing

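With 1 RNA pair nothing here measures the spread between cultures. Signal over background limits the dim genes Ern1, Ern2 and Creb3l1. Of the 38 measured genes, 19 lay below 0 under each of the 9 settings, as did Creb3l1 under the 8 that gave it a value, 6 lay above 0 under each, and 12 changed sign under at least 1 of them, among them Hspa5, Hsp90b1 and the 3 Sec61 genes. The count of genes lower by the small rule was 12 with the scanner software's ratios (31.6%, while the share of all genes also rose, to 17.9%) and 11 with median centring (28.9%, against 13.5%), and ran from 3 on array 1 alone to 10 on array 2 alone. By the strong rule 2 (5.26%) were higher with offset 16 and with the software's ratios, below the 6.86% and 8.92% of all genes, 1 was lower (Xbp1) with the software's ratios, and from 0 to 1 in each direction on single arrays. The median of all 38 genes was -0.22 with the software's ratios, -0.25 with median centring, and from -0.24 to -0.20 on single arrays. With median centring the groups' medians were -0.25 (chaperones), -0.42 (isomerases), -0.40 (translocon), -0.40 (sensors and factors) and -0.073 (degradation genes, which turned sign). The degradation median also turned to -0.11 with dim probes included, which adds Derl3, and to -0.0049 with probes averaged, and was 0.040 and 0.13 on single arrays. The software's ratios gave medians of -0.40 for isomerases, -0.37 for the translocon and -0.55 for sensors and factors. Averaging over probes gave -0.18 for the translocon and -0.27 for sensors and factors. Sensors and factors were at -0.36 with offset 16, at -0.36 over genes above background in both RNAs, and from -0.36 to -0.33 on single arrays, and the translocon from -0.26 to -0.21. The cause of these shifts was not tested, apart from those that follow from fewer or more genes or probes.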

Other observations

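The oligosaccharyltransferase, which attaches N-glycans to proteins in the ER, was grouped from the protein entry list after its values were seen. Of its 11 measured subunits, 9 were below 0 on both arrays, where 4526 of all 12877 measured genes were. They ran from -1.18 for Krtcap2 to -0.12 for Dad1, with Ost4 and Tusc3 at 0.14 and 0.12. The median was -0.39, and it ran from -0.61 with median centring to -0.30 on array 1 alone. The catalytic subunits Stt3a and Stt3b read -0.31 and -0.57. The structural subunits Rpn1, Rpn2 and Ddost read -0.40, -0.39 and -0.45, with another probe of Rpn2 at -0.92. Krtcap2, Ostc and Stt3b were lower by the small rule, against 9.62% of all genes. Only Krtcap2 of the 11 met the strong rule.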
